A study of Mus musculus with 21 samples.

Results

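Histone variants of the male germ line were followed here through their transcripts: the linker histones *Hist1h1t*, *H1fnt* and *Hils1*, the testis core histones *Hist1h2aa* and *Hist1h2ba*, and the genes *H3f3a* and *H3f3b* that encode H3.3. These 7 genes were chosen by their symbols, and all 7 were found among the 24456 genes counted in each library. RNA was sequenced in 21 libraries of fractionated mouse testis cells. Pachytene spermatocytes (P), round spermatids (R) and condensing spermatids (C) had 3 *H2al2* WT (wild-type) and 3 *H2al2* KO libraries each, while spermatozoa (S) had 2 libraries of wild type and only 1 of *H2al2* KO. *H2al2* KO mice lack the histone variant H2A.L.2, and the labels give no strain, age or animal for any library. The study calls its round spermatid replicates biological, but no source ties a library to an animal, so p-values measure the spread between these libraries, which may be technical in part. Counts on genes were 6206239 to 8201682 in wild-type and 5799060 to 6695384 in *H2al2* KO pachytene spermatocytes, 7326572 to 7852780 and 7230653 to 7387043 in round spermatids, 5876464 to 6676636 and 6872271 to 7400817 in condensing spermatids, and 3450580, 2772995 (wild type) and 3297783 (*H2al2* KO) in spermatozoa.

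Spermatogenic cells replace most of their histones on the way to sperm. Spermatocytes add testis forms of the linker histone H1 and of H2A and H2B to their chromatin, spermatids add linker histones of their own while the nucleus condenses, and transition proteins and then protamines take over the DNA. H3.3 is a core histone that can be placed on DNA outside replication, and both of its genes encode the same protein.

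*H2afb1* was read first beside the genotype labels. RefSeq gives this older symbol to 2 genes, *H2al2a*, which encodes H2A.L.2, on chromosome 2 and *H2ab1* on chromosome X. GENCODE places the symbol at the latter locus, and the count files do not say which gene was meant. Its level, in CPM normalized with TMM factors over all 21 libraries (normalized CPM, the scale of the levels below), was 201, 206 and 212 in wild-type round spermatids and 25.4, 25.4 and 20.7 in *H2al2* KO round spermatids. In condensing spermatids it was 190, 160 and 250 in wild type and 26.5, 35.7 and 29.9 in *H2al2* KO. In pachytene spermatocytes it was 40.5, 36.4 and 14.5 against 4.78, 4.91 and 3.14, and in spermatozoa 58.3 and 45.9 against 14.8. The *H2al2* KO libraries lay below the wild-type ones at each stage, with counts of 22 to 258 remaining.

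The fractions were also read against marker genes. Over 8 markers of round spermatids, the summed level was 1480 to 1660 normalized CPM in round spermatids, 389 to 618 in pachytene spermatocytes, 794 to 966 in condensing spermatids and 129 to 147 in spermatozoa. Over 8 markers of spermatocytes it was 587 to 1745 in pachytene spermatocytes, 252 to 457 in round spermatids and 598 to 754 in condensing spermatids. The round spermatid libraries thus held the highest round spermatid sums. Spermatocyte sums were highest in 5 of the 6 pachytene libraries, while wild-type pachytene replicate 2, at 587, lay below all 6 condensing libraries. That last order rested on 1 marker, *Sycp2*, which was at 109 in this replicate. It was at 223 to 286 in wild-type and 255 to 294 in *H2al2* KO condensing spermatids. The condensing fraction carried more spermatocyte marker RNA than the round spermatid fraction in each of its 6 libraries. Wild-type round spermatid replicates 2 and 3 differed less than other pairs, with a mean chi-square of 1.06 per gene over 5617 genes of 100 to 1000 counts in the pair against 1.9 to 12.2 in 18 other pairs of replicates, although the study calls such replicates biological. Over 197 genes above 10000 counts it was 8.76, more than counting error gives, against 65.9 to 593 in pairs of other replicates. Whether they come from 1 sample was not tested. They were kept as 2 libraries, with their sum as an alternative.

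*Hist1h1t* encodes H1T, the linker histone that spermatocytes make during meiosis. Its level was 975, 1140 and 819 normalized CPM in the wild-type pachytene libraries and 830, 882 and 995 in the *H2al2* KO ones. It was 30.2, 20.5 and 17.6 in wild-type and 29.4, 21.5 and 17.4 in *H2al2* KO round spermatids. It was 169, 216.5 and 159 in wild-type and 191, 162 and 164 in *H2al2* KO condensing spermatids. The stages did not overlap: pachytene libraries were highest, round spermatids lowest, and condensing spermatids between them. In bulk RNA, fewer cells of a type and less RNA per cell cannot be told apart. Between pachytene and round cells the edgeR estimate was −5.40 ± 0.23 (SE) on the log2 scale in wild type (adjusted p = 4.8e-09) and −5.33 ± 0.16 in *H2al2* KO (adjusted p = 4.36e-15), a 42.2-fold and a 40.2-fold fall. From round to condensing spermatids *Hist1h1t* rose by 3.02 ± 0.21 in wild type (adjusted p = 6.68e-07) and 2.94 ± 0.15 in *H2al2* KO (adjusted p = 3.55e-11).

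*Hist1h2ba* and *Hist1h2aa* encode TH2B and TH2A, the testis forms of H2B and H2A. *Hist1h2ba* stood at 823, 936 and 574 normalized CPM in wild-type and 559, 732 and 691 in *H2al2* KO pachytene spermatocytes. In round spermatids its level was 78.7, 54.0 and 52.1 in wild type and 69.6, 43.8 and 42.8 in *H2al2* KO. In condensing spermatids it was 259, 235 and 170 in wild type and 257, 220 and 251 in *H2al2* KO. Its 3 stages kept the order of *Hist1h1t* without overlap. The fall to round spermatids was −3.63 ± 0.23 on the log2 scale in wild type (edgeR adjusted p = 5.05e-08) and −3.69 ± 0.16 in *H2al2* KO (adjusted p = 3e-13). The rise to condensing spermatids was 1.87 ± 0.22 (adjusted p = 2.96e-05) and 2.24 ± 0.16 (adjusted p = 1.74e-09).

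*Hist1h2aa* stood at 66.1, 81.7 and 50.8 normalized CPM in wild-type and 55.2, 53.6 and 54.7 in *H2al2* KO pachytene spermatocytes. It was 23.9, 15.6 and 17.9 in wild-type and 24.5, 16.3 and 13.2 in *H2al2* KO round spermatids. It was 30.4, 28.3 and 28.8 in wild-type and 29.5, 24.8 and 26.2 in *H2al2* KO condensing spermatids. These 3 stages were again separate, although the lowest condensing library lay just above the highest round spermatid library. The gene fell by 1.77 and 1.61 on the log2 scale from pachytene spermatocytes to round spermatids (edgeR adjusted p = 2.11e-06 in wild type and 1.66e-08 in *H2al2* KO). Its later rise was 0.63 ± 0.19 in wild type (adjusted p = 0.0146) and 0.59 ± 0.16 in *H2al2* KO (adjusted p = 0.00536). This rise missed the threshold of 0.05 in wild type without round spermatid replicate 2 (0.50, adjusted p = 0.0745), without replicate 3 (0.58, adjusted p = 0.0578) and with these replicates summed (0.55, adjusted p = 0.0552), and in *H2al2* KO without round spermatid replicate 3 (0.38, adjusted p = 0.0547).

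Replicate 1 of the round spermatids was the highest of its group for all 3 of these genes in both genotypes. For the spermatocyte markers the same libraries were the lowest, with sums of 314 in wild type against 457 and 441, and 252 in *H2al2* KO against 412 and 437. In pachytene spermatocytes, wild-type replicate 2 had the highest *Hist1h1t*, *Hist1h2aa* and *Hist1h2ba* levels and the lowest spermatocyte marker sum of all 6 libraries, 587. Whether spermatocyte RNA has a part in these differences between replicates was not tested.

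**Figure D1:**
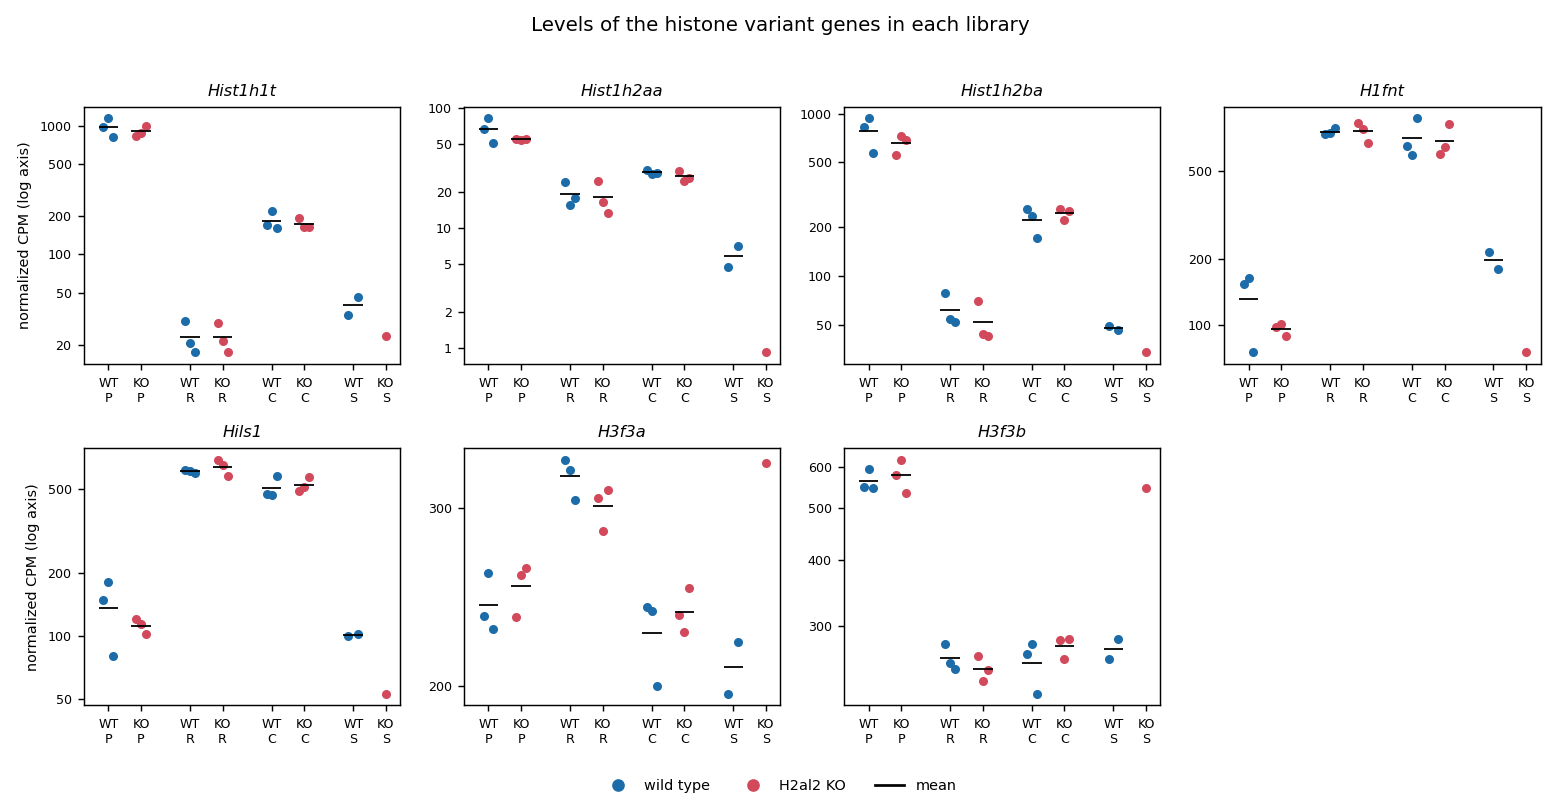
Each panel plots 1 gene, with normalized CPM on a log axis and the libraries grouped by stage (P, pachytene spermatocytes; R, round spermatids; C, condensing spermatids; S, spermatozoa) and genotype; points are libraries and bars are group means. *Hist1h1t*, *Hist1h2aa* and *Hist1h2ba* are lowest of P, R and C in round spermatids, while of the same 3 stages *H1fnt* and *Hils1* are lowest and *H3f3b* is highest in pachytene spermatocytes.

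The rise of these 3 genes in the condensing fraction came with higher markers of other cells. In edgeR, 4 of 8 spermatocyte markers were higher in condensing than in round spermatids in wild type and 0 lower, and 5 were higher and 1 lower in *H2al2* KO. Their median log2 change was 0.80 and 0.85, beside 0.04 and 0.03 over all genes tested, of which 3961 of 14011 and 4126 of 13877 were called higher. The lower one in *H2al2* KO, *Spo11*, was not called with DESeq2 (−0.29, adjusted p = 0.0697), with a replicate block (−0.27, adjusted p = 0.065) and in 10 more alternatives, and *Sycp2* there not with DESeq2 (1.07, adjusted p = 0.0503) or in a fit on 18 libraries (1.08, adjusted p = 0.0524). *Sycp3*, a gene for a protein of the chromosome axis in meiosis, rose by 0.94 ± 0.23 in wild type (adjusted p = 0.00486) and 1.27 ± 0.20 in *H2al2* KO (adjusted p = 2.39e-05). *Sycp2*, from the same axis, was the most abundant gene of the list at 87.1 to 181 normalized CPM in wild-type round spermatids and 223 to 286 in wild-type condensing spermatids, and 61.2 to 170 and 255 to 294 in *H2al2* KO. The change of *Sycp2* did not pass in wild type (0.89 ± 0.46, edgeR adjusted p = 0.125).

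Sertoli and Leydig cells, the nurse cells of the tubules and the steroid-making cells between them, had higher marker levels in this fraction as well. All 8 Sertoli markers tested of 9 were higher in condensing than in round spermatids in each genotype, and their sum was 386 to 494 normalized CPM against 40.8 to 59.6 in wild type and 323 to 385 against 27.1 to 37.5 in *H2al2* KO, with *Clu* the most abundant. All 7 Leydig markers in wild type and the 6 tested in *H2al2* KO were higher too, with sums of 147 to 232 against 11.3 to 15.1 in wild type and 89.1 to 133 against 6.48 to 10.5 in *H2al2* KO. *Cyp17a1*, an enzyme of androgen synthesis, was the most abundant Leydig marker in condensing spermatids, at 42.0 to 66.8 in wild type and 23.5 to 37.0 in *H2al2* KO. No spermatocyte, Sertoli or Leydig marker was at 0 in a whole group of pachytene, round or condensing cells. Mitochondrial genes took 3.11% to 3.70% of counts in round spermatids, 4.48% to 7.51% in condensing spermatids and 4.58% to 6.50% in pachytene spermatocytes, and reads that are not unique 3.70% to 3.96% in round and 4.35% to 5.03% in condensing spermatids. The part of these cells and shares in the rise of *Hist1h1t*, *Hist1h2aa* and *Hist1h2ba* was not tested.

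Markers of other cells moved in the earlier step too. Leydig sums were 79.2 to 164 normalized CPM in wild-type and 25.3 to 106 in *H2al2* KO pachytene spermatocytes, led by *Cyp17a1*, and 7 of 7 and 6 of 6 markers tested were lower in round spermatids, with a median log2 change of −3.07 and −2.92. Of 8 spermatocyte markers 6 were lower and 1 higher in wild type, and 7 and 1 in *H2al2* KO, the higher one being *Dmc1*, not called with library size only (0.37, adjusted p = 0.0779, and 0.53, adjusted p = 0.0662), nor in *H2al2* KO without pachytene replicate 3 (0.41, adjusted p = 0.107) or round spermatid replicate 1 (0.50, adjusted p = 0.0918). Macrophage markers were higher for 6 of 6 tested and 4 of 4, and Sertoli markers for 4 of 8 in each genotype, where 70.3% and 74.9% of all genes were called. Of the Sertoli calls, *Vim* in wild type was lost in 11 alternatives, *Cldn11* in wild type in 5 and *Clu* in *H2al2* KO in 5. The part of these cells, and of the mitochondrial shares above, in the changes of the members from pachytene to round cells was not tested.

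Markers of spermatogonia, the dividing stem and progenitor cells, were higher for 5 of 8 in wild type and 4 of 8 in *H2al2* KO in condensing against round spermatids, where 50.0% and 54.2% of all genes were called in either direction, and the call of *Zbtb16* in *H2al2* KO was lost in 2 alternatives. Peritubular myoid markers were higher for 3 of 5 tested in wild type, and 4 were higher and 1 lower in *H2al2* KO. Of the latter, the lower one, *Actg2*, was not called with a replicate block (−0.27, adjusted p = 0.0692) and in 7 more alternatives, and *Des*, a higher one, not with DESeq2 (1.35, adjusted p = 0.0512) and in 2 more. The red cell marker *Alas2*, which makes heme, rose by 3.77 and 4.25 on the log2 scale, and the hemoglobin gene *Hba-a2* was at 0.878 to 2.00 normalized CPM in wild-type and 0.920 to 1.25 in *H2al2* KO condensing spermatids. *Hbb-bs* was at most 0.145 and 0.153 there, *Hba-a1* and *Hbb-bt* were at 0, and all 4 hemoglobin genes were at 0 in round spermatids. Between these 2 stages macrophage markers did not pass the test in either direction (0 of 6 tested in wild type and 0 of 4 in *H2al2* KO), and epididymis markers summed to at most 3.51 normalized CPM in the condensing libraries.

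**Figure D2:**
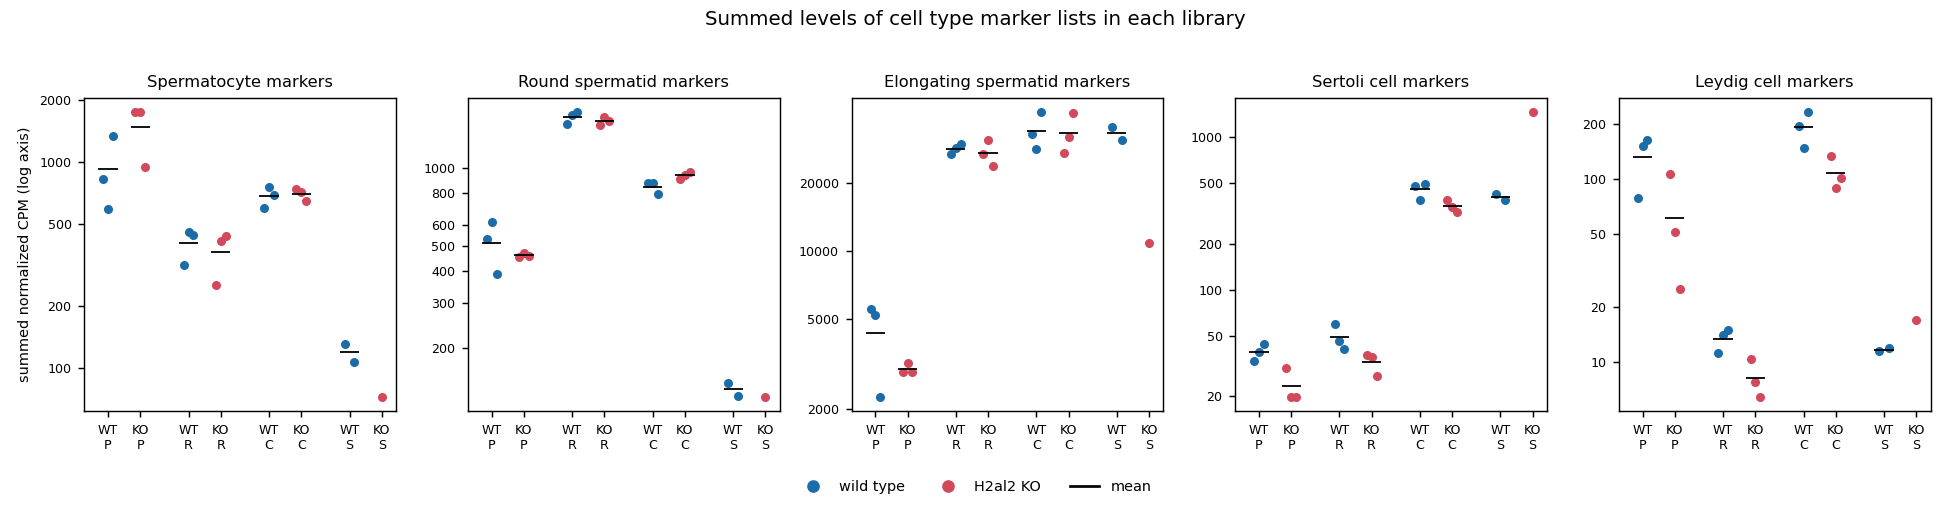
Each panel plots the summed normalized CPM of a marker list on a log axis, by stage (P, R, C, S as above) and genotype; points are libraries and bars are group means. Spermatocyte, Sertoli and Leydig sums are higher in condensing than in round spermatids in each genotype, while round spermatid marker sums are lower.

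*H1fnt* encodes H1T2, a linker histone of spermatids that sits at the apical side of the nucleus, and *Hils1* encodes a spermatid linker-like histone of later, condensing nuclei. *H1fnt* was at 153, 163 and 75.5 normalized CPM in wild-type and 97.9, 101 and 89.0 in *H2al2* KO pachytene spermatocytes. It was at 736, 739 and 780 in wild-type and 825, 776 and 670 in *H2al2* KO round spermatids. It was at 649, 591 and 866 in wild-type and 595, 643 and 816 in *H2al2* KO condensing spermatids. The pachytene libraries were separate and low, and the spermatid stages overlapped. The rise to round spermatids was 2.55 ± 0.25 on the log2 scale in wild type (edgeR adjusted p = 1.03e-06) and 2.96 ± 0.13 in *H2al2* KO (adjusted p = 2.4e-13). Condensing against round spermatids gave −0.07 ± 0.23 (adjusted p = 0.822) and −0.13 ± 0.12 (adjusted p = 0.35), neither past the threshold.

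*Hils1* was at 148, 181 and 80.5 normalized CPM in wild-type and 120, 113 and 102 in *H2al2* KO pachytene spermatocytes. In round spermatids it was at 616, 612 and 596 in wild type and 691, 652 and 575 in *H2al2* KO. In condensing spermatids it was at 474, 468 and 581 in wild type and 491, 512 and 571 in *H2al2* KO. Round spermatids were the highest, with overlap only between the lowest *H2al2* KO round library and the highest wild-type condensing library. *Hils1* rose by 2.18 ± 0.23 in wild type (edgeR adjusted p = 2.06e-06) and 2.49 ± 0.11 in *H2al2* KO (adjusted p = 2.99e-13) in the earlier step. From round to condensing spermatids it changed by −0.23 ± 0.22 in wild type (adjusted p = 0.398) and −0.27 ± 0.10 in *H2al2* KO (adjusted p = 0.0317). The latter call was lost without condensing replicate 1 (−0.23, adjusted p = 0.103) or 2 (−0.25, adjusted p = 0.104), without round spermatid replicate 1 (−0.23, adjusted p = 0.102) or 2 (−0.26, adjusted p = 0.0839), with a filter of 10 counts in every library (−0.21, adjusted p = 0.0841) and in a fit on all 18 libraries (−0.28, adjusted p = 0.184).

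In pachytene spermatocytes, *H1fnt* and *Hils1* were highest in wild-type replicates 1 and 2 and lowest in wild-type replicate 3. The sum of 8 elongating spermatid markers, led by the protamine gene *Prm2*, was likewise highest in replicates 1 and 2 and lowest in replicate 3. The sums were 5534 and 5196 normalized CPM in the former and 2261 in the latter, and 2913, 3202 and 2922 in *H2al2* KO. The part of spermatid RNA in the pachytene levels of these genes was not tested.

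*H3f3b* and *H3f3a* encode the same H3.3 protein from separate loci. *H3f3b* was at 549, 593 and 548 normalized CPM in wild-type and 579, 618 and 536 in *H2al2* KO pachytene spermatocytes. It was at 277, 255 and 249 in wild-type and 262, 236 and 247 in *H2al2* KO round spermatids. It was at 265, 277 and 223 in wild-type and 281, 259 and 283 in *H2al2* KO condensing spermatids. Pachytene libraries were separate and high, and the spermatid stages overlapped. *H3f3b* fell by 1.09 on the log2 scale in wild type (SE 0.12, edgeR adjusted p = 3.2e-06) and by 1.24 in *H2al2* KO (SE 0.098, adjusted p = 7.43e-10) to round spermatids. Condensing against round spermatids gave −0.0025 ± 0.12 (adjusted p = 0.988) in wild type, where the estimate was 0.065 with library size only, and 0.16 ± 0.098 (adjusted p = 0.179) in *H2al2* KO.

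*H3f3a* was at 235, 259 and 228 normalized CPM in wild-type and 234, 257 and 262 in *H2al2* KO pachytene spermatocytes. It was at 335, 327 and 306 in wild-type and 307, 284 and 312 in *H2al2* KO round spermatids. It was at 240, 237 and 200 in wild-type and 235, 226 and 250 in *H2al2* KO condensing spermatids. Of P, R and C, round spermatids were the highest in every library, and pachytene and condensing libraries overlapped. The step to round spermatids was 0.45 ± 0.12 on the log2 scale in wild type (edgeR adjusted p = 0.00394) and 0.24 ± 0.093 in *H2al2* KO (adjusted p = 0.0251). With library size in place of TMM factors it was 0.26 (adjusted p = 0.0778) and 0.09 (adjusted p = 0.382), a scaling that shifted the median of all genes by −0.19 and −0.15. In *H2al2* KO the call was also lost without pachytene replicate 1 (0.19, adjusted p = 0.105) and without round spermatid replicate 1 (0.24, adjusted p = 0.0535) or 3 (0.24, adjusted p = 0.0596), and the change is under 1.2-fold. *H3f3a* was lower in condensing than in round spermatids by −0.49 ± 0.12 in wild type (adjusted p = 0.00405) and −0.33 ± 0.093 in *H2al2* KO (adjusted p = 0.00563).

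Counted together, between pachytene and round cells 7 of 7 members passed edgeR's test at an adjusted p of 0.05 in wild type, 3 higher and 4 lower, where 70.3% of 14011 genes tested did so. In *H2al2* KO 7 of 7 passed in the same directions, beside 74.9% of 13877 genes. From round to condensing spermatids 4 of 7 passed in wild type and 5 of 7 in *H2al2* KO, where 50.0% and 54.2% of all genes did so. Most genes passed at the earlier step and about as many as not at the later one, so being called is not particular to the members, which differed from one another in direction and size. The round spermatid libraries enter both steps of a genotype, so the steps share them.

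Ratios of 2 members within a library do not depend on library scaling. There were 2.34, 2.29 and 2.40 *H3f3b* counts for each *H3f3a* count in wild-type and 2.47, 2.40 and 2.05 in *H2al2* KO pachytene spermatocytes. There were 0.829, 0.779 and 0.814 in wild-type and 0.855, 0.830 and 0.791 in *H2al2* KO round spermatids, and 1.11, 1.17 and 1.11 in wild-type and at least 1.13 in *H2al2* KO condensing spermatids. The ratio was thus above 1 in the 12 pachytene and condensing libraries and below 1 in the 6 round spermatid libraries, as a ratio of counts that takes no account of length. The mean log2 ratio changed by −1.51 from pachytene to round and by 0.49 from round to condensing spermatids (two-sided exact permutation test within genotype, p = 0.005 in each case, the smallest that 400 arrangements can give, and 0.005 adjusted over 6 tests). In the earlier step *H3f3b* fell and *H3f3a* rose without overlap of the stages, so that p follows from their levels.

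The testis pair did not keep its proportion either. For each *Hist1h2aa* count there were 10.1 to 13.7 *Hist1h2ba* counts in pachytene spermatocytes, 2.68 to 3.46 in round spermatids and 5.90 to 9.57 in condensing spermatids. The 3 ranges do not overlap. The log2 ratio fell by 1.96 and then rose by 1.43 (exact permutation test, adjusted p = 0.005 for each), so *Hist1h2ba* RNA moved more than *Hist1h2aa* RNA in both steps.

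Between the linker histones, *Hils1* counts for each *Hist1h1t* count were 0.098 to 0.159 in pachytene spermatocytes, 20.4 to 33.9 in round spermatids and 2.16 to 3.66 in condensing spermatids. The ratio rose by 7.76 on the log2 scale between pachytene and round spermatids (exact permutation test, adjusted p = 0.005), and no library of either stage overlapped the other. *Hist1h1t* fell and *Hils1* rose in this step without overlap, so this p follows from their levels and adds nothing to them. The ratio changed by −3.26 in the condensing fraction (exact permutation test, adjusted p = 0.005), where the marker sums given above also moved and their part was not tested.

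**Figure D3:**
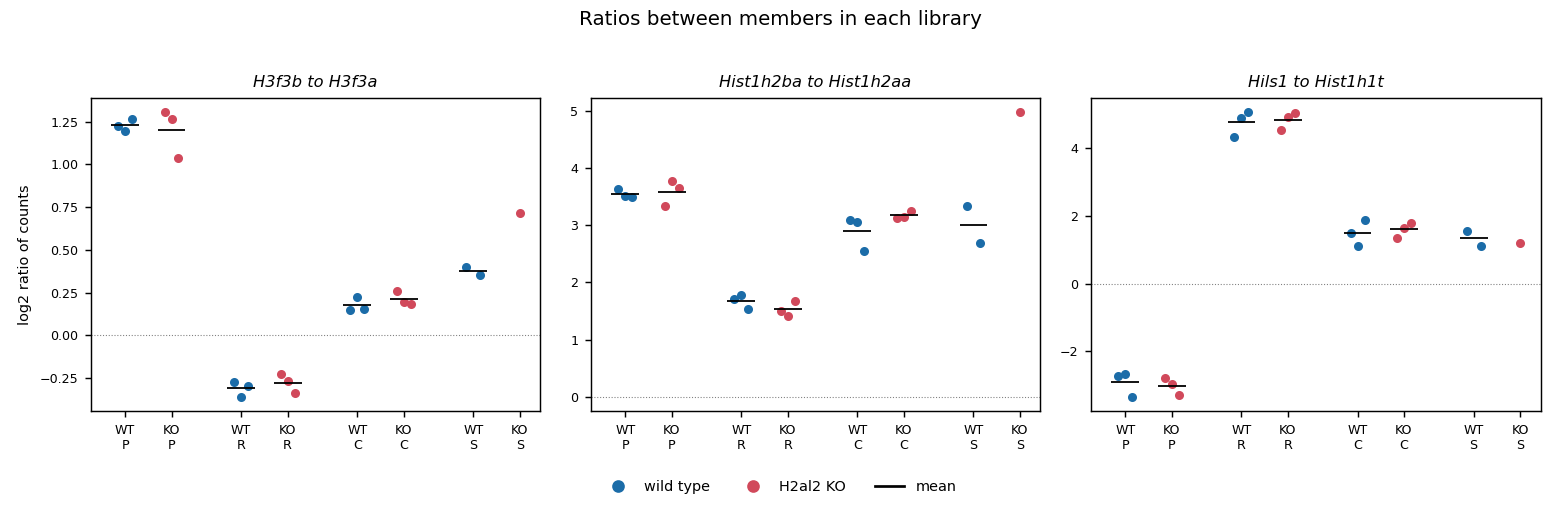
Log2 ratio of counts (0.5 added to each) of 3 pairs of members in each library, by stage (P, R, C, S as above) and genotype; points are libraries, bars group means and the dotted line equal counts. The *H3f3b* to *H3f3a* ratio lies below 0 only in round spermatids, and the *Hils1* to *Hist1h1t* ratio below 0 only in pachytene spermatocytes.

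Levels of different genes can be compared only per length, here as normalized CPM per kb of summed annotated exon. In pachytene spermatocytes *Hist1h2ba* was highest at 1872 ± 378 per kb (SD, n = 6), followed by *Hist1h1t* at 1031 ± 133, *H3f3b* at 192 ± 10.7, *Hist1h2aa* at 155 ± 30.0, *Hils1* at 144 ± 41.2, *H1fnt* at 86.6 ± 27.4 and *H3f3a* at 70.1 ± 4.31. The ranges of *H3f3b*, *Hist1h2aa* and *Hils1* overlapped, as did *Hils1* with *H1fnt* and *H1fnt* with *H3f3a*. In round spermatids *Hils1* led at 722 ± 48.2 and *H1fnt* followed at 577 ± 40.3, then *Hist1h2ba* at 148 ± 37.5. *H3f3a* and *H3f3b* had 89.0 ± 5.05 and 85.5 ± 4.79 there and overlapped, *Hist1h2aa* had 47.6 ± 11.8, and *Hist1h1t* was lowest at 25.0 ± 6.24. In condensing spermatids *Hist1h2ba* (604 ± 88.4), *Hils1* (598 ± 56.7) and *H1fnt* (530 ± 90.1) overlapped and stood above *Hist1h1t* (194 ± 24.6), with *H3f3b* (89.0 ± 7.60), *Hist1h2aa* (71.8 ± 5.44) and *H3f3a* (66.0 ± 4.86) below it. There *Hist1h2aa* overlapped both *H3f3b* and *H3f3a*, which were separate from each other. With RefSeq lengths, an alternative chosen after seeing the data, only neighbours whose ranges overlap changed places, and *Hils1* came before *Hist1h2ba* in condensing spermatids. In the 2 wild-type libraries of spermatozoa the ranges were 137 to 164 for *H1fnt*, 120 to 127 for *Hist1h2ba*, 116 to 118 for *Hils1*, 87.1 to 95.0 for *H3f3b*, 56.1 to 63.0 for *H3f3a*, 37.1 to 51.5 for *Hist1h1t* and 12.1 to 18.1 for *Hist1h2aa*. The *Hist1h2aa*, *Hist1h2ba*, *Hils1* and *Hist1h1t* transcripts are annotated at 390, 384, 864 and 912 bases. Counting only reads that lie wholly inside exons may take more from short genes, which was not tested.

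In wild-type spermatozoa *Hist1h1t* was at 33.8 and 46.9 normalized CPM, *Hist1h2ba* at 48.9 and 46.2, and *Hist1h2aa* at 4.71 and 7.06. *H1fnt* was at 214 and 179, and *Hils1* at 100 and 102. *H3f3a* was at 197 and 221 and *H3f3b* at 259 and 283. Against condensing spermatids, 5 of 7 members were lower in edgeR's test and 0 higher, where 72.4% of 15116 genes passed. The log2 difference was −2.15 ± 0.19 for *Hist1h1t* (adjusted p = 1.86e-09), −2.19 ± 0.19 for *Hist1h2ba* and −2.30 ± 0.25 for *Hist1h2aa*. For the spermatid linker genes it was −1.81 ± 0.19 in *H1fnt* and −2.30 ± 0.17 in *Hils1* (adjusted p = 1.39e-10). *H3f3a* (−0.09 ± 0.15, adjusted p = 0.62) and *H3f3b* (0.11 ± 0.15, adjusted p = 0.501) did not pass. Of the marker lists, 7 of 8 spermatocyte, 8 of 8 round spermatid and 6 of 7 Leydig markers were lower too, with medians of −2.39, −2.79 and −4.12. Of 8 elongating spermatid markers 5 were lower and 1 higher, with a median of −1.22. The transition protein and protamine genes were lower for 5 of 5, with a median of −1.71. Markers of other cells were high: macrophage markers summed to 740 and 781 normalized CPM, led by *Lyz2*, against 26.6 to 35.2 in wild-type condensing spermatids, and epididymis markers to 1813 and 1929, led by *Crisp1*, with *Lcn5* and *Lcn8* at 0. All 7 macrophage markers tested were higher in spermatozoa, and 2 of 3 epididymis markers. Sertoli markers summed to 385 and 426, with 7 of 8 lower and *Vim*, a filament gene of many cell types, higher. Mitochondrial genes took 10.9% of counts in both wild-type libraries of spermatozoa against 4.48% to 6.47% in wild-type condensing spermatids, and reads that are not unique 15.4% and 15.5% against 4.35% to 4.82%. The part of these markers and shares in the differences of the members was not tested.

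Between genotypes no member passed the test in pachytene, round or condensing cells, the stages where it was run. In pachytene spermatocytes 0 of 7 members and 0.00% of 12236 genes passed in edgeR, and the members' log2 differences, *H2al2* KO minus wild type, ran from −0.36 ± 0.22 for *H1fnt* to 0.13 ± 0.099 for *H3f3a*. Even *H2afb1*, at −2.75 ± 0.37, did not pass in this fit (adjusted p = 0.484), so smaller differences could be missed there. In round spermatids 0 of 7 members passed, beside 0.0156% of 12804 genes, which is 2 genes. These were *H2afb1* (−3.10 ± 0.10, adjusted p = 3.4e-08) and *Sptbn4*, a spectrin gene named after its value was seen (0.86 ± 0.11, adjusted p = 0.0495). The count fell to 1 gene with DESeq2 size factors, in a fit on 18 libraries, with wild-type replicates 2 and 3 summed and without either genotype's replicate 2 or 3, and it was 264 without wild-type round spermatid replicate 1, with 0 of 7 members. The members' differences ran from −0.23 ± 0.19 for *Hist1h2ba* to 0.08 ± 0.081 for *Hils1*. In condensing spermatids 0 of 7 members and 0.00728% of 13734 genes passed, the only gene being *H2afb1* (−2.71 ± 0.17, adjusted p = 9.54e-07), and the members ran from −0.13 ± 0.12 for *Hist1h2aa* to 0.12 ± 0.14 for *Hist1h2ba*. At an unadjusted p under 0.05 the count was also 0 of 7 at each stage, while 815, 753 and 870 of all genes were under it, and DESeq2 called 0 of 7 members at each stage and 2, 6 and 13 genes in all. The wild-type and *H2al2* KO ranges overlapped for each member at each of these 3 stages. A p that misses the threshold does not show that the genotypes are equal.

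Leaving out wild-type pachytene replicate 3 changed the call of 1 member. Without it, *H1fnt* was lower in *H2al2* KO pachytene spermatocytes by −0.60 (edgeR adjusted p = 0.0452), and 243 genes were called in all. The wild-type replicates that remain are those with the highest elongating spermatid marker sums, 5534 and 5196 normalized CPM against 2913 to 3202 in *H2al2* KO, and the part of these cells in the difference was not tested.

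Whether the effect of the KO differed between neighbouring stages was tested as an interaction on 18 libraries, and 0 of 7 members and 0.00% of 14479 genes passed in edgeR for round spermatids against pachytene spermatocytes. For condensing against round spermatids it was again 0 of 7 and 0.00%. At an unadjusted p under 0.05 there were 0 of 7 members in each and 1050 and 407 genes, and DESeq2 called 0 of 7 members in each and 1 and 0 genes. The largest member estimate was 0.39 ± 0.27 for *H1fnt* between round spermatids and pachytene spermatocytes (adjusted p = 0.721). Without replicate 3 of each group this became 0.77 (adjusted p = 0.0124), *Hils1* reached 0.61 (adjusted p = 0.0281), and 731 genes were called.

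Of 8 other linker histone genes, the somatic ones with the oocyte form *H1foo*, 6 were tested. *H1fx*, a replication-independent linker histone, was lower in round spermatids than in pachytene spermatocytes in each genotype (−1.06 ± 0.13 and −1.03 ± 0.13), and no other gene of the list was called in wild type. In *H2al2* KO *Hist1h1d* was higher (0.94 ± 0.38, edgeR adjusted p = 0.0319), a call lost with library size only (0.80, adjusted p = 0.0754) and without pachytene replicate 2 (0.93, adjusted p = 0.0654), pachytene replicate 3 (0.83, adjusted p = 0.0985) or round spermatid replicate 1 (0.43, adjusted p = 0.333). The list's median log2 change was −0.22 in wild type and 0.04 in *H2al2* KO. In the step to condensing spermatids 0 of 6 were called in wild type, and *Hist1h1e* was higher in *H2al2* KO (0.82 ± 0.21, adjusted p = 0.00279). Over all genes 70.3% and 74.9% were called in the earlier step and 50.0% and 54.2% in the later one.

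Of 15 other core variant genes found, 13 were tested in wild type and 12 in *H2al2* KO, and 3 were higher and 7 lower in round spermatids than in pachytene spermatocytes in each, beside 70.3% and 74.9% of all genes called. *H2afx*, the variant phosphorylated at DNA breaks and on the sex chromosomes in meiosis, fell by 2.43 in wild type and by 2.32 in *H2al2* KO, and rose by 0.76 and 0.64 in condensing spermatids, the same order of stages as *Hist1h2aa*. *Hist3h2a* fell by 2.05 and by 1.91 to round spermatids. *H2afb1* rose by 2.77 in wild type and 2.46 in *H2al2* KO, *1700024P04Rik* by 2.68 and 3.07, and *H2afy2*, a macroH2A gene, by 1.65 and 2.18.

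The factors that handle these histones were examined as lists, and in pairs of values below the wild-type one comes first. Of 11 genes for the processing of histone mRNA, 1 was higher and 6 were lower in round spermatids in wild type, and 1 and 9 in *H2al2* KO, with a median of −0.87 and −0.92 beside −0.02 and 0.00011 over all genes, of which 70.3% and 74.9% were called. *Slbp*, whose protein binds the stem-loop at the end of replication-dependent histone mRNAs, fell by 1.32 in wild type (SE 0.13, edgeR adjusted p = 9.6e-07). In *H2al2* KO it fell by 1.29 (SE 0.099, edgeR adjusted p = 4.24e-10). *Zfp473*, a subunit of the machinery that cuts the end of such mRNAs, fell by 1.89 and by 1.97. *Cstf2* rose by 2.01 and 1.81 while its autosomal copy *Cstf2t* fell by 1.77 and by 1.85, both being polyadenylation factors.

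Of 8 genes for the deposition of H3.3, 1 was higher and 3 lower in round spermatids in wild type, and 1 and 4 in *H2al2* KO, beside 70.3% and 74.9% of all genes called. *Hira*, the core of the complex that places H3.3, fell by 1.49 (SE 0.23, edgeR adjusted p = 7.66e-05) and by 1.54, *Ubn1*, its partner, by 1.19 in each genotype, and *Asf1b*, a chaperone of H3 and H4, by 1.50 and by 1.39. *Ubn2*, a relative of *Ubn1*, rose by 0.72 in wild type and 0.40 in *H2al2* KO, where the call was lost with library size only (0.24, adjusted p = 0.114) and without pachytene replicate 3 (0.27, adjusted p = 0.079) or round spermatid replicate 2 (0.29, adjusted p = 0.0813). In condensing spermatids *Atrx*, which places H3.3 in heterochromatin, was higher by 1.90 and 1.92, and *Daxx*, its partner, was lower (−0.63 and −0.62).

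Of 14 chaperones and importins for H2A, H2B and linker histones, 2 were higher and 6 lower in round spermatids in wild type, and 2 and 8 in *H2al2* KO, beside the same shares of all genes. *Ipo5*, an importin, rose by 1.06 and 1.14, while *Supt16*, a subunit of FACT, fell by 2.34 and by 2.59, and *Nap1l1*, a chaperone of H2A and H2B, by 1.94 and by 2.20. *Anp32e*, a chaperone of H2A.Z, rose by 2.53 and 2.76 in condensing spermatids. All 5 transition protein and protamine genes were higher in round spermatids than in pachytene spermatocytes in each genotype, with *Prm1* at 2.84 ± 0.32 and 3.36 ± 0.15, and 0 of 5 passed between round and condensing spermatids, where 50.0% and 54.2% of all genes did. Of 10 transcription factors of these cells, 5 were higher and 3 lower in round spermatids in wild type, and 6 and 3 in *H2al2* KO, beside 70.3% and 74.9% of all genes called. *Mybl1*, the regulator of meiotic genes, fell by 1.10 and by 1.62, and *Rfx1* rose by 2.10 and 2.15.

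The genes with the most similar course to each member were taken by Pearson's r of log2(CPM + 1) over the 18 libraries of P, R and C, which share stage and fraction, among 8369 genes. *Hist1h1t* was closest to *Rcc2* (0.997), *4930579G24Rik* (0.995) and *Tex19.2* (0.995). *Hist1h2ba* was closest to *Rpl14* (0.995), *Hist1h4h* (0.993) and *Rcc2* (0.991), and *Hist1h2aa* to *H2afx* (0.981), *Mybbp1a* (0.980) and *Smdt1* (0.980). *Rcc2*, a chromatin-bound regulator of cell division, was thus near both *Hist1h1t* and *Hist1h2ba*, and another H2A variant stood nearest to *Hist1h2aa*. *H1fnt* was closest to *Pwwp2b*, *Spert* and *Hspa1l* (0.999 each), and *Hils1* to *Sort1*, *Micalcl* and *Rab3il1* (0.998 each). *H3f3b* was closest to *Spdye4b* (0.995), *Tbc1d1* (0.993) and *Mdc1* (0.993). For *H3f3a* the values were lower, at 0.948 with *Amn1*, 0.947 with *Hoxd8* and 0.935 with *Armc3*. These are few of many near-equal courses: 614 genes had an r above 0.95 with *Hist1h1t*, 839 with *H1fnt*, 1085 with *H3f3b* and 0 with *H3f3a*. Fewer than 2 of the 3 names were shared in 12 of 14 repeats with Spearman's coefficient or wild-type libraries only. Among the members themselves r was 0.994 between *Hist1h1t* and *Hist1h2ba*, 0.995 between *H1fnt* and *Hils1*, 0.959 between *Hist1h2aa* and *Hist1h2ba* and 0.043 between *H3f3a* and *H3f3b*.

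By position, on build GRCm38.p6, *Hist1h1t* is a gene of 1 exon at chr13:23695811-23696545. *Hist1h2ba* (chr13:23933725-23934156, minus strand) and *Hist1h2aa* (chr13:23934437-23934913, plus strand) lie head to head with 280 bases between their starts, and *Gm44344* on the minus strand overlaps *Hist1h2aa*. *H1fnt* is at chr15:98255982-98257307 (minus strand). *Hils1* (chr11:94967593-94968456, plus strand) lies within an intron of *Sgca*, which runs on the opposite strand, with 0 *Sgca* exons touching it, and the counting used strand. *H3f3a* (chr1:180802560-180813605) and *H3f3b* (chr11:116021961-116026039) are genes of several exons on the minus strand, and *H3f3a* is overlapped by the antisense genes *Gm17275* and *H3f3aos*.

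The promoters of *Hist1h1t* and *Hist1h2aa*, 2 of the genes that fell between pachytene and round spermatids, are shown from RefSeq, in which 7 of 7 members were matched, as 250 bases before a start. Both strands were searched for the CCAAT box (CCAAT), the TATA box (TATAAA), the GC box (GGGCGG), the octamer known from H2B promoters (ATGCAAAT), the H1 box (AAACACA), the CRE (TGACGTCA) and an E-box (CACGTG), and 0 matches of different motifs overlapped in the members. Capitals mark the CCAAT, TATA and H1 boxes and the octamer on either strand. The first is upstream of *Hist1h1t* (chr13:23695561-23695810, plus strand), and the other lies between *Hist1h2ba* and *Hist1h2aa* (chr13:23934187-23934436, plus strand, read toward *Hist1h2aa*).
Hist1h1t: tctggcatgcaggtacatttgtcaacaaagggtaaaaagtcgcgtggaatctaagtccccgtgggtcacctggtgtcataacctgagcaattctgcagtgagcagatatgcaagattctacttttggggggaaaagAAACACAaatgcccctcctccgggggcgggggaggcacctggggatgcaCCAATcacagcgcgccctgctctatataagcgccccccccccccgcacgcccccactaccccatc
Hist1h2aa: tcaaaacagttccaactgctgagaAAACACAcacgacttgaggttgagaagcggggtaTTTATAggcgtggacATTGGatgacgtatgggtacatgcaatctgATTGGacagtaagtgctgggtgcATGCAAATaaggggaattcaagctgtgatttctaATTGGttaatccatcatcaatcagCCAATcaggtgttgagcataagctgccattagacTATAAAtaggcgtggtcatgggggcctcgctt
The *Hist1h1t* stretch has 1 CCAAT box, 1 GC box and 1 H1 box, and the stretch before *Hist1h2aa* has 4 CCAAT boxes, 2 TATA boxes, 1 octamer and 1 H1 box. The stretch before *Hist1h2ba* overlaps the latter and holds the same octamer, H1 box and CCAAT boxes, so these matches are not separate. Among 32851 promoter stretches of this length, 33.8% hold the CCAAT box, 12.4% the TATA box, 32.7% the GC box, 1.60% the octamer, 6.25% the H1 box, 1.55% the CRE and 6.02% the E-box. The stretch that RefSeq gives for *H3f3b* (chr11:116024505-116024754, minus strand) lies inside the locus, not before its outer end, and holds 1 octamer, 4 CCAAT boxes and 1 TATA box. The stretch before *H3f3a* has 4 GC boxes, 1 CCAAT box and 1 H1 box. *Hils1* has 1 CCAAT box and *H1fnt* 0 of the 7 motifs. The CRE and the E-box were found in 0 of 7 stretches. These are matches of letters, and their function was not tested.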

How the data were processed

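Total RNA was depleted of ribosomal RNA and sequenced in pairs of 75 bases on a NextSeq 500. The authors aligned the reads to mm10 with STAR 2.7.11b and deposited, for each library, the count of reads per gene made with HTSeq, with reads kept by strand and only where they lie inside exons. Between 34.6% and 57.7% of reads were counted on no gene, among them 30.5% to 47.7% on no feature and reads that were not unique. The limit for a gene with no reads was 3 counts, which is 0.366 to 1.08 CPM and covers counting error only. Each comparison was fitted over all genes with edgeR 4.0.16 in R 4.3.3, using TMM factors, filterByExpr, quasi-likelihood tests and a Benjamini-Hochberg adjusted p under 0.05. Stage steps were fitted within a genotype on 9 libraries, spermatozoa with condensing spermatids on 5, the KO within a stage on 6. Log2 ratios of counts, with 0.5 added, were compared with exact permutation tests. The fits were tested on simulated data. Alternatives were DESeq2 1.42.0, other scalings, filters, lengths, pseudocounts and fits, a replicate block and leaving out each library. Genes named from a list were at most 3 per direction with the largest log2 change among those called with a mean of at least 1 CPM. Members and lists were chosen with earlier results of these data known. The single *H2al2* KO library of spermatozoa entered no test.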

Additional observations from a re-analysis of the deposited data

Results flagged for a closer look

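In spermatozoa the *H2al2* KO genotype has 1 library, so it entered no test. *H3f3a* was at 332.5 normalized CPM in it, above the wild-type libraries at 197 and 221. *H3f3b* was at 545.5, above 259 and 283. The same library had a macrophage marker sum of 3627 over 7 genes, with *Lyz2* the most abundant at 2397, against 740 and 781 in wild type. Its elongating spermatid marker sum was 10805 over 8 genes, with *Odf1* the most abundant, against 35166 and 31019, and none of these markers was at 0. Sertoli markers summed to 1466 in this library, led by *Vim* at 1182, against 385 and 426 in wild type. Epididymis markers summed to 556 against 1813 and 1929. Mitochondrial genes took 5.93% of counts against 10.9% in both wild-type libraries. Reads that are not unique were 11.6% against 15.5% and 15.4%, and reads on no gene 57.7% against 48.5% and 47.8%. The part of these cells and shares in the 2 levels was not tested.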

How the results depend on the processing

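Of 616 alternative values for the members at the stage steps, 594 kept both sign and call, 16 were no longer called and 6 turned sign. Of 490 for the KO and the interactions, 463 did so, 24 turned sign and 3 became called, and of 4156 for listed genes 4040 did so and 116 were no longer called. Over its alternatives the adjusted p of *H3f3a* from pachytene to round ran from 2.82e-05 to 0.0778 in wild type and 0.00139 to 0.382 in *H2al2* KO. For *Hist1h2aa* from round to condensing it ran from 0.00396 to 0.0745 and 7.57e-05 to 0.0547, and for *Hils1* in *H2al2* KO from 0.0103 to 0.184. For *H1fnt* with the KO in pachytene cells it ran from 0.0452 to 0.985, and in the earlier interaction from 0.0124 to 1 for *H1fnt* and 0.0281 to 1 for *Hils1*.

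No call was made on any value that turned sign. For *H3f3b* from round to condensing in wild type the log2 change was 0.06499 with library size only, 0.06507 with at least 10 counts in every library and 0.001439 in 1 fit on 18 libraries. With wild-type round replicates 2 and 3 summed, the KO difference of *Hist1h1t* in round spermatids was −0.07644, its earlier interaction −0.02969, and the later interaction of *Hist1h2aa* 0.004827. The cause was not tested.

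Without 1 library at a time, *H3f3b* in that step ran from −0.1041 to 0.07601 and *H3f3a* from condensing spermatids to spermatozoa from −0.1614 to 0.002419. The KO difference of *Hist1h1t* ran from −0.1128 to 0.02602 in pachytene, −0.2093 to 0.2732 in round and −0.1636 to 0.05675 in condensing cells. In round spermatids *H1fnt* ran from −0.0351 to 0.1011 and *Hist1h2aa* from −0.3523 to 0.1253. In condensing spermatids *H1fnt* ran from −0.1916 to 0.1421, *Hils1* from −0.0261 to 0.1563, *Hist1h2ba* from −0.02611 to 0.2445 and *H3f3a* from −0.008376 to 0.09816. Without 1 replicate number, the earlier interaction ran from −0.07684 to 0.297 for *Hist1h1t*, −0.07375 to 0.4795 for *Hist1h2aa* and −0.2717 to 0.2077 for *Hist1h2ba*. The later one ran from −0.2644 to 0.1348 for *Hist1h1t*, −0.1202 to 0.04512 for *H1fnt* and −0.1643 to 0.04344 for *Hist1h2aa*. The members called ran from 0 to 1 for the KO in pachytene cells and from 0 to 2 in the earlier interaction.

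The ratios kept their direction in 42 of 42 alternatives. In wild type alone the *H3f3b* to *H3f3a* log2 ratio changed by −1.539 and 0.4851, *Hist1h2ba* to *Hist1h2aa* by −1.869 and 1.217, and *Hils1* to *Hist1h1t* by 7.681 and −3.284. In *H2al2* KO alone the changes were −1.48 and 0.4892, −2.053 and 1.639, and 7.849 and −3.23. Without 1 replicate number they ran from −1.53 to −1.492 and 0.4682 to 0.5052, from −2.002 to −1.921 and 1.394 to 1.496, and from 7.459 to 8.044 and −3.374 to −3.124. The smallest adjusted p of the exact permutation test is then 0.1 for 1 genotype and 0.0556 without a replicate number, so none could pass.

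With a replicate block, 0, 61 and 26 genes were called for the KO in pachytene, round and condensing cells, and the members called did not change. Of 7 pairings of groups by replicate number, 0 had all pairs of libraries correlated above 0.1. With no filter on low counts 1, 28 and 27 genes were called. For the KO in condensing spermatids leaving out wild-type replicate 1, 2 or 3 gave 4, 24 and 9 genes called, and leaving out *H2al2* KO replicate 1 gave 3. In round spermatids 264 were called without wild-type replicate 1, and 1 without wild-type or *H2al2* KO replicate 2 or 3. Short genes, the unknown annotation of the counting and 3 libraries a group limit these values.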

Other observations

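The other 5 members were lower in the *H2al2* KO library of spermatozoa than in both wild-type ones. *Hist1h1t* was at 23.1 normalized CPM, *Hist1h2ba* at 33.9, *H1fnt* at 75.1 and *Hils1* at 53.0. *Hist1h2aa* was at 0.924, which is 3 counts. Per kb of exon *H3f3b* was highest in this library at 183 and *H1fnt* was at 57.4, while in wild type *H1fnt*, at 137 to 164, was above *H3f3b*, at 87.1 to 95.0. The *H3f3b* to *H3f3a* ratio of counts was 1.64 in this library and 1.32 and 1.28 in wild type.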
